A study of Mus musculus with 6 samples.

Results

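The genes described here are 9 genes of glial filaments and glial reactivity, Gfap, Vim, Nes, Serpina3n, Lcn2, Cd44, S100a6, Osmr and Cd9. They were chosen by name, and each was found as 1 row among the 16411 genes of the count table, 15217 of which had a count in the cells used. The cells came from the hypothalamus of male ob/ob mice, which lack leptin and are obese and diabetic. Every mouse was 11 weeks old and had received 3 µg of FGF1 R50E in the brain ventricles 5 days before it was killed, R50E being a variant of the growth factor FGF1. All 6 labelled mice carried the same strain and the same treatment, so there was no control and no effect of R50E was measured. Cells of mice 3, 4, 30 and 34 were in the table, and mice 12 and 37 had none there. Each mouse was 1 library and 1 replicate.

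GFAP, vimentin and nestin are intermediate filament proteins. Astrocytes of the healthy brain carry mainly GFAP, whereas tanycytes, the elongated glia at the base of the third ventricle, and the ciliated ependymal cells of its upper wall keep vimentin and nestin from the radial glia of development. After injury or inflammation astrocytes raise GFAP and vimentin together with secreted proteins such as the protease inhibitor SERPINA3N and the iron-carrier protein lipocalin-2, and with the surface proteins CD44, CD9 and the oncostatin M receptor, which signals through STAT3.

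The stretch around the start site is shown for 5 of the genes, Gfap and Vim because their levels went in opposite directions between astrocytes and the ventricle-lining cells, and Serpina3n, Lcn2 and Osmr because they stood apart in mouse 30. Each sequence is 300 bases of RefSeq (GRCm38.p6), from 250 bases before the start site to 50 after it, 5′ to 3′ on the gene's own strand. The windows lie at chr11:102897151-102897450 (minus strand) for Gfap, chr2:13574061-13574360 (plus) for Vim, chr12:104406458-104406757 (plus) for Serpina3n, chr2:32387690-32387989 (minus) for Lcn2 and chr15:6874264-6874563 (minus) for Osmr. Capitals mark matches to 1 of 4 motifs, the STAT motif TTCNNNGAA, the NF-kB motif GGANTTTCC and the AP-1 motif TGANTCA on both strands, and TATAAA on the gene's strand.
Gfap: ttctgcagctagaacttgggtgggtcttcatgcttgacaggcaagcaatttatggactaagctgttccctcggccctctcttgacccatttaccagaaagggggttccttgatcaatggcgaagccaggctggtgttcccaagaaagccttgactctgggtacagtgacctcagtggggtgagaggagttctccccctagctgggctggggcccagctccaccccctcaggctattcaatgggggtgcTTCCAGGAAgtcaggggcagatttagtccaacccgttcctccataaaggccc
Vim: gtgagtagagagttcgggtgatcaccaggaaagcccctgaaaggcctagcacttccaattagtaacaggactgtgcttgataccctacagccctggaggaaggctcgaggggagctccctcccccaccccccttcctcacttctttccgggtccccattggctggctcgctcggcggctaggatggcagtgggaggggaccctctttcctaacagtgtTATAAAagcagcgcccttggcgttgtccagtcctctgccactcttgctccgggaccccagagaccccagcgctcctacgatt
Serpina3n: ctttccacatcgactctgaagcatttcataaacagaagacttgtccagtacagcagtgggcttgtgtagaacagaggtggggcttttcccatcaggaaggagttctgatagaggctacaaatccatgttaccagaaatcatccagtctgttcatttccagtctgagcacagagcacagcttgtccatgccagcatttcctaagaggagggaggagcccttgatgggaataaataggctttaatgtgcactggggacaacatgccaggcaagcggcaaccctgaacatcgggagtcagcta
Lcn2: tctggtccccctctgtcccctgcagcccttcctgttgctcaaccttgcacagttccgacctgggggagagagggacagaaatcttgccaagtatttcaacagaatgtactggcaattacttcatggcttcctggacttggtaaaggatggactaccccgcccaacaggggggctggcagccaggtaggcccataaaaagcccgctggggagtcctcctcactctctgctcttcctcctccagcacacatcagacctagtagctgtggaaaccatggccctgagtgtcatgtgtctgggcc
Osmr: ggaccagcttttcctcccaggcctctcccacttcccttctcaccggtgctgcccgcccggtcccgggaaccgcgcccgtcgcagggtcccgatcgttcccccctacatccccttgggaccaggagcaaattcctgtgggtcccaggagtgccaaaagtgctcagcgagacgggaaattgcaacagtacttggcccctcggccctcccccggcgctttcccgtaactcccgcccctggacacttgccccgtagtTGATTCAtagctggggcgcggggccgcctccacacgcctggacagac

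The STAT letters were in the Gfap window, starting at position -2 from the start site, and 8.30% of 32851 windows of mouse genes held them. The AP-1 letters were in the Osmr window (7.81% of all windows) and TATAAA was in the Vim window, starting at position -32 (8.32% of all windows). No match shared bases with another. All 9 genes had a window, and those of Nes, Serpina3n, Lcn2, Cd44, S100a6 and Cd9 held none of these letters. The NF-kB letters, in 1.25% of all windows, were in none of the 9. A match describes the letters only.

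The 20151 cells of the 4 mice (3005 to 7386 cells and 3299971 to 8856079 counted molecules, or UMIs, a mouse) carried the authors' labels of 9 cell types, among them 5909 astrocytes, 4490 tanycytes and 1530 ependymal cells. The label of each type was checked against its markers, and the astrocyte, tanycyte and ependymal lists were highest in their own type for 6 of 6, 6 of 6 and 5 of 5 markers. Markers of mural cells were also highest in the cells labelled endothelial. Only 68 vascular leptomeningeal cells were labelled, 44 of them in mouse 30, and they were left out of comparisons. Oligodendrocyte markers lay between 1388 and 5905 CPM (UMIs of a gene per 1000000 UMIs of that mouse and type) in astrocytes, tanycytes, ependymal cells, endothelial cells and microglia, so low levels of a gene were read beside its level in types that should lack it. The mice also differed in traces of other cells. The summed hemoglobin genes Hbb-bs and Hba-a1 in ependymal cells reached 283 CPM in mouse 30, while the other 3 mice had 59.8 to 91.4 CPM. The barcodes of 391 cells also occurred in another of these libraries, and the number that chance would give was not derived. CPM of a gene counts molecules at its 3′ end and is compared here between cell types, not between genes.

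Gfap was an astrocyte gene in these cells, and the level in astrocytes differed almost 3-fold between mice. Astrocytes held 56.7% of its 2038 UMIs. The gene lies at chr11:102887336-102900912 with 9 exons in its principal transcript. Its level in astrocytes was 144, 391, 428 and 159.9 CPM in mice 3, 4, 30 and 34 (281 ± 150 CPM, SD, n = 4). In ependymal cells it was 42.0, 89.5, 156 and 81.8 CPM in the same order. In tanycytes it was 34.9, 63.5, 75.8 and 62.7 CPM. Within every mouse the astrocytes were highest of the 3 types, although ependymal cells of mouse 30 exceeded astrocytes of mouse 3. Tanycytes did not stand apart from oligodendrocyte precursor cells (32.1 to 81.0 CPM), microglia (20.3 to 89.4 CPM), oligodendrocytes (25.9 to 60.6 CPM) or endothelial cells (13.1 to 60.7 CPM), whose ranges over mice overlapped theirs, but lay above committed oligodendrocyte precursors (9.57 to 32.6 CPM).

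Vim and Nes showed the opposite layout, high in the cells that line the ventricle and in endothelial cells, and low in astrocytes. Vim (chr2:13573927-13582826, 9 exons) was highest in ependymal cells, at 716, 774, 1080 and 579 CPM in mice 3, 4, 30 and 34. Tanycytes followed with 513, 564, 476 and 475 CPM, and the ranges of the 2 types did not overlap. Endothelial cells held 480, 347, 516 and 401 CPM, overlapping tanycytes. Astrocytes held 25.8, 83.5, 66.0 and 28.0 CPM, which was below every tanycyte, ependymal and endothelial value. In microglia mouse 30 was alone at 233 CPM, with 15.0 to 44.7 CPM in the other 3 mice. Nes (chr3:87971078-87980451, 4 exons), the filament of neural stem cells and of young vessels, was highest in endothelial cells, at 245, 208, 235 and 193 CPM. Its spread in ependymal cells was the smallest of any member in the 3 glial types, with 55.0, 57.7, 56.9 and 56.5 CPM. Tanycytes held 51.1, 62.4, 62.1 and 64.4 CPM, so that the 2 ventricle-lining types overlapped, and astrocytes held 9.23 ± 5.73 CPM (SD, n = 4). The astrocyte value rested on 37 UMIs in 5909 cells.

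Serpina3n and Lcn2, the secreted members, differed in where and in which mice they were found. Serpina3n (chr12:104406729-104414329, 5 exons) was evenly present in astrocytes, at 68.9, 84.8, 90.1 and 57.0 CPM in mice 3, 4, 30 and 34. In ependymal cells it was at 12.9, 2.89, 181 and 10.8 CPM, so that mouse 30 was 14.0 times the next mouse and above all astrocyte values. In tanycytes the levels were 3.93, 9.07, 52.7 and 7.28 CPM, again with mouse 30 alone. Oligodendrocyte precursor cells (25.2 to 39.4 CPM) and oligodendrocytes (14.2 to 21.8 CPM) had no mouse apart. Of the related Serpina3 genes searched, Serpina3f and Serpina3g had UMIs, and all of these were in mouse 30. Serpina3f had 7 UMIs and Serpina3g 6 UMIs in its endothelial cells, and in ependymal cells both were listed at 0 in every mouse.

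Lcn2 (chr2:32384633-32388252, 6 exons) had 196 UMIs, all in mouse 30. In that mouse its level was 281 CPM in endothelial cells (74 UMIs, 95% Poisson interval 221 to 353 CPM), 156 CPM in ependymal cells (74 UMIs, 123 to 196 CPM) and 321 CPM in the 44 vascular leptomeningeal cells. Tanycytes were at 6.32 CPM and astrocytes at 4.00 CPM, with 6 and 2 UMIs. Few cells carried it. The UMIs lay in 20 of 380 ependymal cells and 10 of 225 endothelial cells, and the single highest cell held 24 UMIs (32.4%) and 26 UMIs (35.1%). Without that cell the levels were 106 CPM in ependymal and 185 CPM in endothelial cells. In mice 3, 4 and 34 Lcn2 was listed at 0 in every cell. In each library between 1630 and 2414 genes were at 0, but only 19 to 71 genes had UMIs in exactly 1 cell. Whether a filter within each library had set low counts to 0 was not tested, so no upper limit and no fold was derived from these zeros. Slc22a17, a receptor for lipocalin-2, was found in all 4 mice, at 156 to 174 CPM in tanycytes and 90.7 to 121 CPM in ependymal cells.

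Of the surface proteins, Cd44 was a gene of the ventricle lining, Osmr a gene of endothelial cells and Cd9 was highest in committed oligodendrocyte precursors. Cd44 (chr2:102811141-102901665, 19 exons), the hyaluronan receptor, was at 59.0, 79.4, 100.1 and 80.1 CPM in tanycytes of mice 3, 4, 30 and 34. In ependymal cells it was at 27.5, 60.6, 141 and 66.2 CPM, a wider range with the same mouse highest. Astrocytes held 5.89 to 26.0 CPM, below every value of both types. Osmr (chr15:6813577-6874969, 18 exons) was at 53.1, 69.3, 83.5 and 58.9 CPM in endothelial cells. In ependymal cells it was at 3.23, 5.77, 67.5 and 1.203 CPM and in tanycytes at 4.42, 2.27, 27.4 and 5.04 CPM, so that mouse 30 was alone in both. Astrocytes held 6.35, 10.3, 22.0 and 2.00 CPM. The ligand gene Osm had 40 UMIs in microglia and at most 3 in any other type.

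Cd9 (chr6:125460266-125494791, 8 exons), a tetraspanin of the cell surface, was highest in committed oligodendrocyte precursors, with 2693, 1840.4, 3824 and 2311 CPM in mice 3, 4, 30 and 34. Next came oligodendrocyte precursor cells (558 to 692 CPM), ependymal cells (485 to 717 CPM), tanycytes (476 to 649 CPM), microglia (355 to 547 CPM) and oligodendrocytes (330.0 to 464 CPM), each overlapping the next. Astrocytes (210.1 to 280.1 CPM) lay below oligodendrocytes and above endothelial cells (113 to 156 CPM), with no overlap on either side. An antisense gene at the same place, Gm28809, is also in the count table. S100a6 (chr3:90612882-90624181, 3 exons) encodes a small calcium-binding protein. Tanycytes held 5553, 4389, 4036 and 5398 CPM, ependymal cells 2616, 1501, 1578 and 2042 CPM, and committed precursors 1021, 893, 665 and 1029 CPM, in 3 steps without overlap. Astrocytes held 326, 478, 444 and 335 CPM. Tanycytes were 22.3% of all cells and held 74.2% of the S100a6 UMIs.

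**Figure D1:**
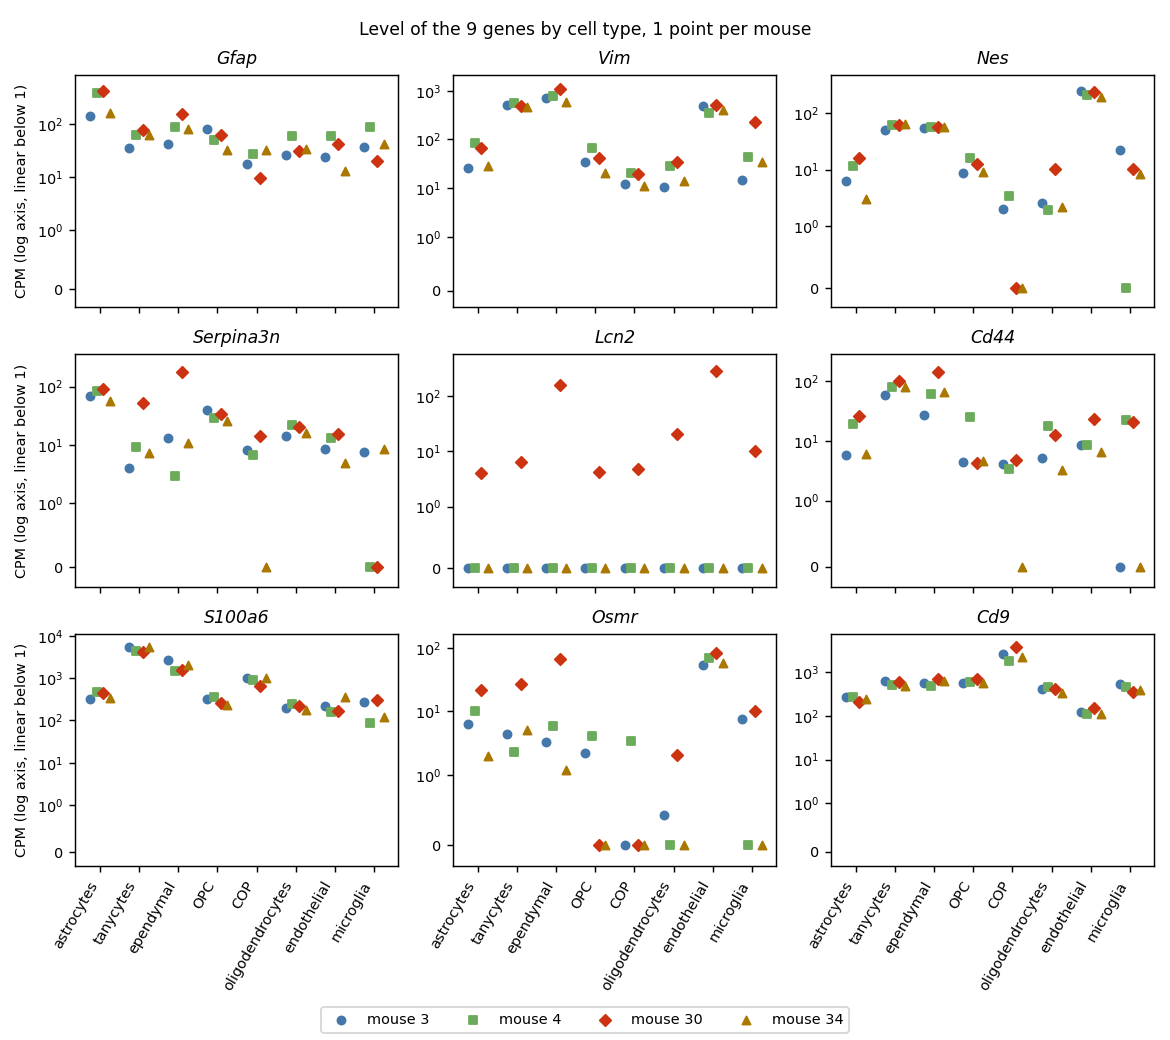
Level of each gene in CPM (vertical axis, logarithmic above 1 CPM and linear below) in 8 cell types (horizontal axis), with 1 marker for each of the 4 mice; OPC are oligodendrocyte precursor cells and COP committed precursors. Gfap is highest in astrocytes, Vim in ependymal cells, S100a6 in tanycytes, Nes in endothelial cells and Cd9 in committed precursors, and mouse 30 stands alone for Serpina3n and Osmr in tanycytes and ependymal cells and for Lcn2.

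The cell types were then compared within the same mice by the edgeR quasi-likelihood F test, with mouse as a block. Calls required a Benjamini-Hochberg adjusted p under 0.05 together with a difference of more than 2-fold, a log2 fold change over 1 or under -1. The cell type labels were given to these same cells, so a call describes the types, and the share of all tested genes called is given beside each count of members.

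Tanycytes had more S100a6, Vim, Nes, Cd44 and Cd9 and less Serpina3n and Gfap than astrocytes. All 7 members that passed the filter on low counts were called, 5 higher and 2 lower, beside 21.1% of 10081 genes, 10.1% higher and 11.0% lower. Each went the same way in 4 of 4 mice. The log2 fold change was 3.64 ± 0.10 for S100a6 (SE, n = 4 mice, adjusted p 5.22e-27), 3.58 ± 0.15 for Vim (adjusted p 1.33e-21), 3.05 ± 0.23 for Nes (adjusted p 3.93e-14) and 2.85 ± 0.20 for Cd44 (adjusted p 1.19e-14). For Cd9 it was 1.09 ± 0.09 (adjusted p 3.31e-13), close to the limit, and 1.00 without mouse 30. Gfap was at -2.10 ± 0.13 (adjusted p 3.12e-16). Serpina3n was at -2.45 ± 0.25 (adjusted p 1.54e-10) and ranged from -3.46 to -2.02 when 1 mouse was left out, with the lower value without mouse 30. Lcn2 and Osmr did not pass the filter in this or either of the next 2 comparisons.

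Between tanycytes and ependymal cells S100a6 alone was called, 1 of 6 members tested, a share near that of all genes. It was higher in tanycytes by a log2 fold change of 1.43 ± 0.09 (SE, n = 4 mice, adjusted p 1.76e-17), beside 19.8% of 8781 genes. Vim (-0.51 ± 0.10, adjusted p 4.48e-05) and Gfap (-0.49 ± 0.16, adjusted p 0.00951) were lower in tanycytes in 4 of 4 mice by less than 2-fold and were not called. The log2 fold changes of Nes (0.17 ± 0.16, adjusted p 0.427), Cd44 (0.29 ± 0.17, adjusted p 0.171) and Cd9 (-0.03 ± 0.09, adjusted p 0.815) did not pass the test. Serpina3n did not pass the filter on low counts here.

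Between astrocytes and ependymal cells all 7 members tested were called, 2 higher in astrocytes and 5 lower, beside 31.8% of 8371 genes, 14.3% higher and 17.6% lower. Vim (-4.00 ± 0.19, SE, n = 4 mice, adjusted p 3.51e-13), Nes (-2.86 ± 0.29, adjusted p 5.96e-08), Cd44 (-2.40 ± 0.25, adjusted p 8.57e-08), S100a6 (-2.19 ± 0.17, adjusted p 8.23e-10) and Cd9 (-1.11 ± 0.14, adjusted p 7.78e-07) were lower in astrocytes in 4 of 4 mice. The call of Cd9 was lost with equal totals (-0.91) and without mouse 30 (-0.96). Gfap was higher in astrocytes in 4 of 4 mice (1.63 ± 0.16, adjusted p 3.01e-08). The Serpina3n call (1.12 ± 0.42, adjusted p 0.0289, higher in 3 of 4 mice) rested on the choice of mice. In mouse 30 the ependymal cells were higher, and the log2 fold change was 2.84 without it. Without mouse 3, 4 or 34 it was 0.82, 0.79 or 0.86, and the adjusted p was 0.135, 0.144 or 0.139.

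Endothelial cells differed from astrocytes in 6 of 7 members tested, 3 higher and 3 lower, beside 35.0% of 7616 genes, 17.2% higher and 17.8% lower. Nes (4.92 ± 0.20, SE, n = 4 mice, adjusted p 1.96e-30), Vim (3.35 ± 0.16, adjusted p 3.55e-27) and Osmr (3.04 ± 0.29, adjusted p 4.63e-14) were higher in endothelial cells in 4 of 4 mice. Gfap (-3.07 ± 0.18, adjusted p 2.93e-23), Serpina3n (-3.01 ± 0.28, adjusted p 1.02e-14) and Cd9 (-1.09 ± 0.13, adjusted p 7.72e-11) were lower in 4 of 4. S100a6 (-0.71 ± 0.14, adjusted p 1.35e-05, lower in 3 of 4 mice) was within 2-fold, and at -1.15 without mouse 34, in whose endothelial cells it was highest. Cd44 did not pass the filter, with 17 UMIs in endothelial cells.

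Oligodendrocyte precursor cells and oligodendrocytes served to place the genes outside the astroglial and ventricular cells, and 0 of 5 members tested were called there by edgeR, beside 28.0% of 6497 genes. At an unadjusted p under 0.05 the count was 2, and DESeq2 called 0. Vim was higher in precursor cells in 4 of 4 mice by a log2 fold change of 0.64 ± 0.27 (SE, n = 4 mice, adjusted p 0.0396) and Cd9 by 0.22 ± 0.09 (adjusted p 0.0295), both under 2-fold.

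**Figure D2:**
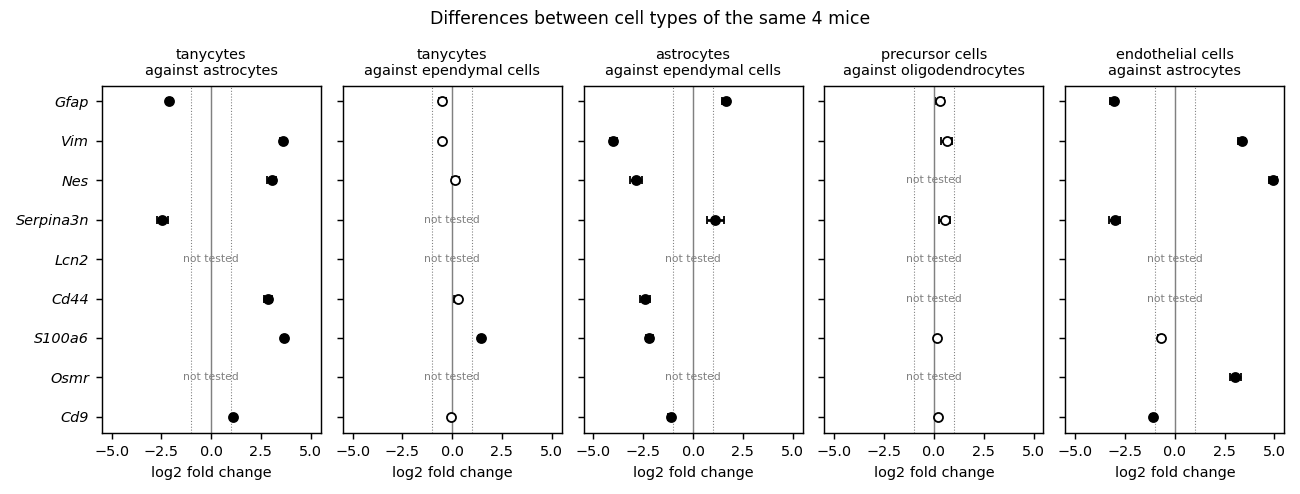
Log2 fold change (horizontal axis, first type minus second type, bars are the SE derived from the F statistic of the fit to 4 mice) of each gene in 5 comparisons of cell types by edgeR. Filled points were called, open points were not, and dotted lines mark 2-fold. Tanycytes and ependymal cells differ from astrocytes in the same direction for Vim, Nes, Cd44, S100a6 and Cd9, and S100a6 is the only filled point between tanycytes and ependymal cells.

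The share of cells with at least 1 UMI was compared after every cell was thinned to 500 UMIs, since depth differed between types. S100a6 was found in 85.6% ± 4.21 of tanycytes (SD, n = 4 mice), 55.3% ± 7.54 of ependymal cells and 14.4% ± 1.27 of astrocytes. In oligodendrocytes and microglia it was found in 8.59% ± 0.387 and 7.48% ± 3.97 of cells. Vim was found in 22.0% ± 3.27 of tanycytes, 28.1% ± 4.91 of ependymal cells, 20.1% ± 4.60 of endothelial cells and 1.99% ± 1.30 of astrocytes, against 0.890% ± 0.643 of oligodendrocytes. Gfap was found in 8.11% ± 4.11 of astrocytes and 2.51% ± 0.910 of tanycytes. Among types that should lack Gfap it was found in 2.48% ± 0.571 of oligodendrocyte precursor cells and 1.99% ± 1.29 of endothelial cells, whose ranges over mice held the tanycyte mean. It was found in 1.36% ± 0.299 of committed precursors, below tanycytes in 4 of 4 mice at 500 and at 800 UMIs. Oligodendrocytes, with 1.87% ± 0.420, were below tanycytes in 4 of 4 mice at 500 UMIs, in mouse 34 by little (2.12% against 2.16%), but not at 800 UMIs, where mouse 4 had 5.21% of oligodendrocytes against 4.40% of tanycytes. Without thinning Gfap was found in 13.1% of astrocytes and 5.82% of tanycytes, whose median UMIs per cell were 829.5 to 888 and 932 to 1208. Cd44 was found in 3.89% ± 0.799 of tanycytes and 3.43% ± 2.03 of ependymal cells, and in 0.390% ± 0.0914 of oligodendrocytes. Serpina3n was found in 3.57% ± 0.983 of astrocytes, and in 7.63% of the ependymal cells of mouse 30 against 0.215% to 0.909% in the other mice.

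Astrocytes with a Gfap UMI had more Vim, Serpina3n and S100a6 than astrocytes of the same mouse without one. There were 97 to 193 such cells a mouse. Gfap itself chose the cells and was left out of the totals. Vim was at 89.4, 153, 163 and 73.4 CPM in the cells with a Gfap UMI of mice 3, 4, 30 and 34, and at 20.6, 66.1, 38.5 and 23.2 CPM in the cells without. Serpina3n was at 161, 146, 145 and 89.1 CPM with and at 61.3, 69.3, 74.5 and 53.6 CPM without. Both were higher with a Gfap UMI in 4 of 4 mice, and both were called by edgeR, beside 0.601% of 4325 genes. The log2 fold change was 1.64 ± 0.24 for Vim (SE, n = 4 mice, adjusted p 2.55e-09) and 1.03 ± 0.20 for Serpina3n (adjusted p 4.91e-05). S100a6, at 596, 547, 662 and 692 CPM with and 304, 461, 383 and 297 CPM without, rose by less than 2-fold (0.80 ± 0.10, adjusted p 4.61e-14). Cd9 did not pass the test (0.15 ± 0.13, adjusted p 0.642).

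The astrocytes with a Gfap UMI were deeper, with median totals of 925 to 997 UMIs against 823 to 879. When the sums were thinned to equal totals, that of the smallest sum, neither call remained. This thinned the sums and not the cells. It dropped UMIs mainly from the larger set without a Gfap UMI and did not match depth between cells, so it does not show the part of depth. Vim then did not pass the filter, and Serpina3n was at 0.60 (adjusted p 0.407), while S100a6 stayed past the adjusted p at 0.85. Without mouse 3 Serpina3n was at 0.89 (adjusted p 0.0448) and was no longer called. The summed tanycyte markers were at 161 ± 88.5 CPM with and 138 ± 76.0 CPM without a Gfap UMI (SD, n = 4), higher in 2 of 4 mice. Astrocyte markers were at 11392 ± 599 and 10839 ± 376 CPM, also higher in 2 of 4. Oligodendrocyte markers (2642 ± 704 against 3393 ± 932 CPM), microglial markers (102 ± 56.3 against 138 ± 62.1 CPM) and hemoglobin genes (147 ± 128 against 196 ± 163 CPM) were lower with a Gfap UMI in 4 of 4 mice, and their part in the differences was not tested. Among the genes with the largest differences were Myoc, the secreted glycoprotein myocilin, from 4.24 ± 4.71 to 199 ± 69.3 CPM (log2 fold change 6.09 ± 0.32, SE, adjusted p 2.49e-77), Ccdc3 (2.81 ± 0.33) and the extracellular sulfatase Sulf2 (2.32 ± 0.23). The glutamine carrier Slc38a1 (1.86 ± 0.15), the IGF-binding protein Igfbp5 (1.73 ± 0.12) and Nbl1, a BMP antagonist (1.57 ± 0.27), were also higher, as was Vim. Plec, which encodes the filament linker plectin, was also called (1.48). Clcc1 (-1.42 ± 0.32) was the largest of the lower genes.

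In tanycytes the same split gave no call among the other members. Of 5 members tested 0 were called by edgeR, 0 passed an unadjusted p under 0.05 and DESeq2, which gave no adjusted p for 2 of them, called 0, beside 0.245% of 6124 genes. With and without a Gfap UMI (47 to 78 and 646 to 1538 tanycytes a mouse), Vim was at 600.3 ± 64.7 and 499 ± 44.4 CPM (SD, n = 4), higher in 4 of 4 mice, a log2 fold change of 0.21 ± 0.11 with an adjusted p of 0.592. S100a6 was at 4778 ± 619 and 4846 ± 755 CPM, and Cd44 at 82.9 ± 14.4 and 79.4 ± 17.4 CPM. The tanycytes with a Gfap UMI were deeper in 4 of 4 mice, with medians of 1148.5 to 1382 UMIs against 921 to 1201.5, and the part of depth in the differences that follow was not tested. Whether the splits of the 2 cell types differed from each other was not tested. On simulated counts, 2-fold changes passed the adjusted p for 32% of genes in the tanycyte split and 64% in the astrocyte split. Other genes did differ in tanycytes. Tgfb2, a growth factor gene, was higher with a Gfap UMI (187 ± 47.3 against 77.8 ± 5.62 CPM, log2 fold change 1.18 ± 0.22, adjusted p 4.05e-05), as were Nbl1 (1.75 ± 0.36), Cd24a (1.62 ± 0.36), Bicd2 (1.46 ± 0.41), the Wnt agonist Rspo3 (1.41 ± 0.32), Megf9 (1.24 ± 0.31) and the nuclear receptor Nr2f2 (from 46.2 to 112 CPM). Pdzph1 was lower (-1.17 ± 0.24). Each of these went the same way in 4 of 4 mice. Summed astrocyte markers were higher in tanycytes with a Gfap UMI in 4 of 4 mice, at 4381 ± 486 against 3512 ± 540 CPM, as were ependymal markers, at 955 ± 184 against 826 ± 176 CPM, and their part in these differences was not tested.

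**Figure D3:**
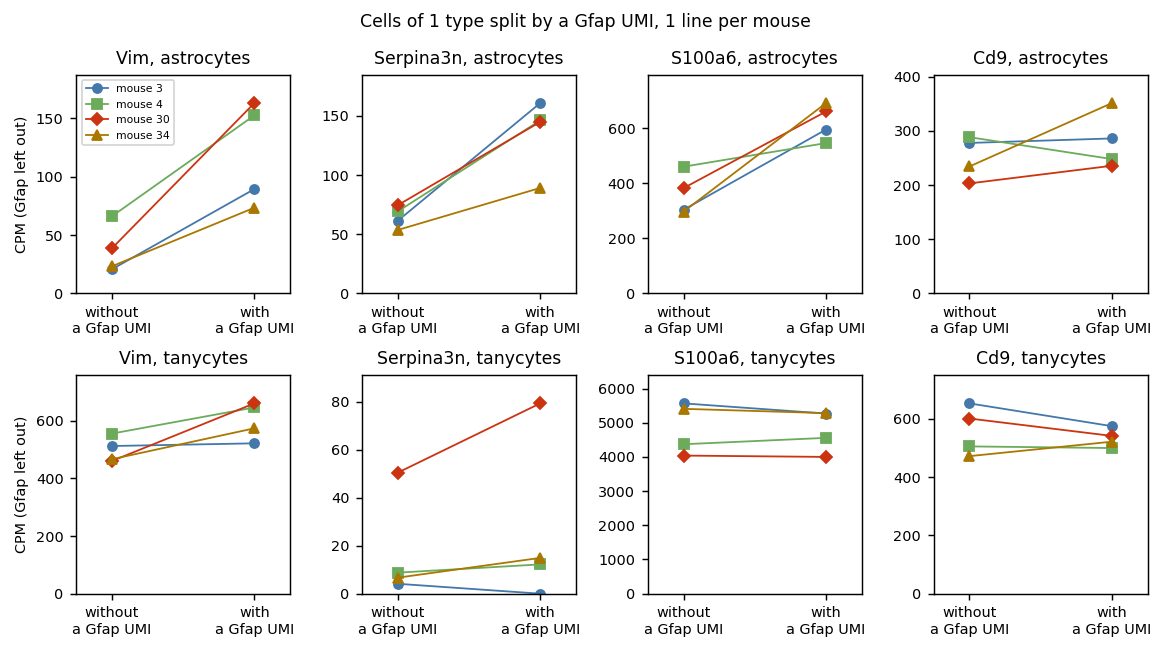
CPM (vertical axis, from 0, Gfap left out of the total) of Vim, Serpina3n, S100a6 and Cd9 in astrocytes (upper row) and tanycytes (lower row) without and with a Gfap UMI, with 1 line per mouse. In astrocytes the lines of Vim, Serpina3n and S100a6 rise in all 4 mice, and in tanycytes the lines of S100a6 and Cd9 have no common direction.

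Within single cells the members were counted in pairs, after thinning to 500 UMIs, against the number of cells that independence within each mouse would give. In astrocytes 9 of 36 pairs had at least 5 expected cells, and 4 of the 9 had a 95% Poisson interval of the ratio wholly above 1. Gfap and Vim were found together in 17 astrocytes where 6.66 were expected (ratio 2.55, interval 1.49 to 4.09, above 1 in 4 of 4 mice). S100a6 was found with Vim in 29 cells against 13.2 (ratio 2.20, 1.47 to 3.15), with Gfap in 87 against 50.7 (1.71, 1.37 to 2.11) and with Serpina3n in 41 against 27.0 (1.52, 1.09 to 2.06). Gfap and Serpina3n were together in 18 cells against 12.0, and the interval of that ratio reached 1 (0.891 to 2.37). At 800 UMIs, a depth that 3580 astrocytes reached, 4 of 9 pairs again had intervals above 1, but not the same 4. Gfap with Vim (2.90, 1.94 to 4.17), Vim with S100a6 (2.10, 1.52 to 2.82) and Gfap with S100a6 (1.51, 1.24 to 1.81) kept theirs. Serpina3n with S100a6 lost it (44 cells against 38.0, 0.841 to 1.55) and Gfap with Serpina3n gained it (32 against 16.7, 1.31 to 2.70). At 500 UMIs the pairs with Cd9 lay between 0.941 and 0.992. In tanycytes 0 of 16 pairs had an interval off 1, with a median ratio of 0.968, Gfap and Vim being at 1.26 (0.841 to 1.83). In ependymal cells 1 of 19 pairs had, Vim and Nes, with 20 cells against 11.6 (1.72, 1.05 to 2.66). At 800 UMIs Vim and Nes were together in 22 ependymal cells against 20.1 (1.09, 0.685 to 1.66), and 0 of 20 ependymal and 0 of 21 tanycyte pairs had an interval above 1. The intervals cover counting error only.

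**Figure D4:**
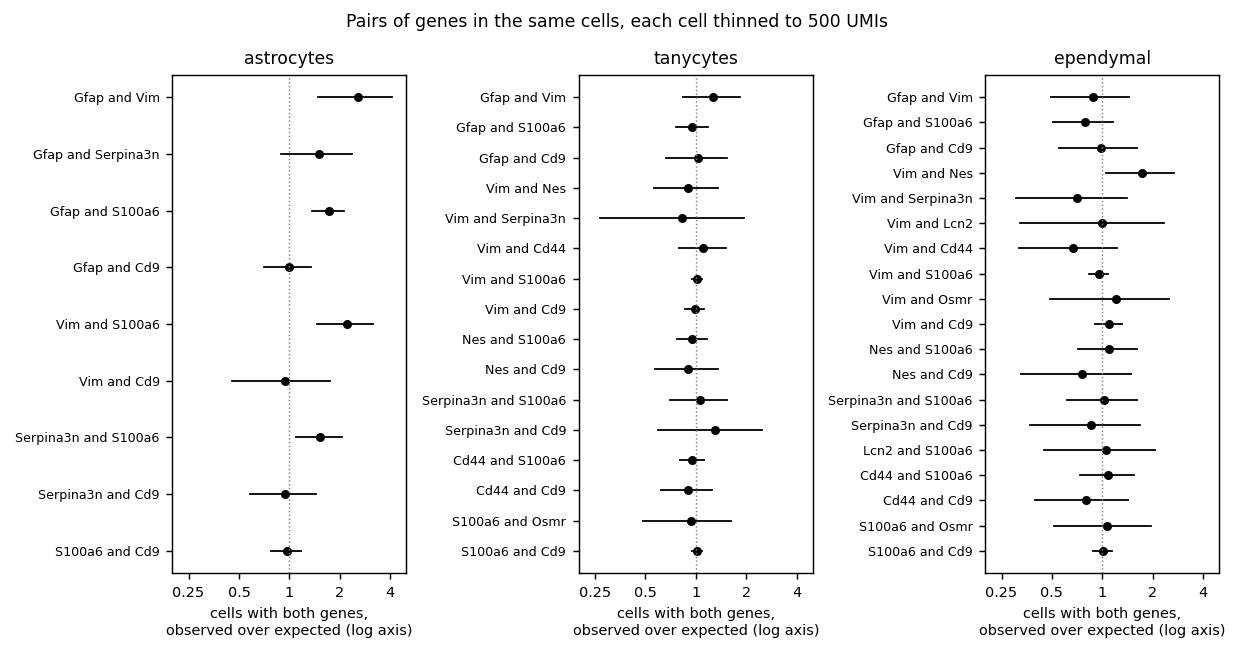
Cells with UMIs of both genes, observed over expected (horizontal axis, logarithmic), for every pair with at least 5 expected cells in astrocytes, tanycytes and ependymal cells; points are the ratio over 4 mice and bars its 95% Poisson interval. Of the astrocyte pairs, 4 of 9 lie above 1 with their whole interval, against 0 of 16 in tanycytes and 1 of 19 in ependymal cells at 500 UMIs.

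The 4 mice were then ordered for each member, which the size of the group allows as a description only. Genes were counted where their mean over mice 3, 4 and 34 was at least 20 CPM, so that mouse 30 played no part in their choice, a rule set after the data were seen. In ependymal cells mouse 30 was highest for 4 of 6 members (Vim, Cd44, Cd9 and Gfap, but not Nes or S100a6), where it was highest for 22.9% of 6726 genes. Its gap to the next mouse, as a part of the whole range, passed Dixon's 95% limit for 4 values for 0 of the 6 and for 1.28% of all genes. Serpina3n (gap 0.944), Osmr (0.931) and Lcn2, below 20 CPM in the other mice, are described by their values only. Of the 3 members with a mean of at least 100 CPM over all 4 mice, mouse 30 was highest for 2, beside 20.2% of 1613 genes, and apart for 0. In endothelial cells mouse 30 was highest for 3 of 6 members (Vim, Cd9 and Osmr), beside 26.9% of 6359 genes. In tanycytes it was highest for 2 of 6, Gfap and Cd44, beside 24.4% of 6223 genes. The mice were within 1.26-fold of each other for Nes in tanycytes and within 1.05-fold in ependymal cells.

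In astrocytes the order was a different one. Gfap, Vim, Serpina3n and S100a6 were higher in both mice 4 and 30 than in both mice 3 and 34, 4 of 5 members with at least 20 CPM, and Cd9 was not. Over all 6272 genes 27.7% had that order, and mouse 30 alone was highest for 2 of the 5 members (30.0% of 6246 genes with that mean over the other mice). The same order held for Gfap, 1 of 6 members, in tanycytes (21.5% of genes). It held for Vim and Cd9, 2 of 5, in oligodendrocyte precursor cells (17.7%), Vim, 1 of 4, in microglia (18.0%) and 0 of 3 in committed precursors (16.7%). Gfap, Vim and Nes in ependymal cells, Vim and S100a6 in oligodendrocytes and Gfap and Osmr in endothelial cells had it as well. No share is given for these last types, because some members pass 20 CPM there through mouse 30. In astrocytes Nes, Cd44 and Osmr, at lower levels, had this order too. Mice 4 and 30 had the fewer cells (3180 and 3005, against 7386 and 6580), and this order was looked at after the values were seen. The summed tanycyte markers in astrocytes followed it, at 86.1, 155, 246 and 75.0 CPM in mice 3, 4, 30 and 34, as did the microglial markers, at 85.2, 164, 198 and 81.5 CPM, and their part was not tested. The ependymal markers did not, at 302, 226, 196 and 257 CPM. The median mitochondrial percent of astrocytes was 14.7, 15.4, 16.1 and 14.7 in mice 3, 4, 30 and 34. It thus had the same order, and its part was not tested. S100a6 had the reverse order in tanycytes, ependymal cells, committed precursors and endothelial cells, where both mice 3 and 34 were higher.

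Other genes of astrocyte reactivity were counted from lists, beside the 10.1% of all genes called higher in tanycytes than in astrocytes and the 11.0% called lower. Between tanycytes and astrocytes 4 of 7 pan-reactive genes other than the members were tested, and 3 of the 4 were higher in tanycytes, the sphingosine receptor gene S1pr3 (log2 fold change 3.08), the small heat shock gene Hspb1 (1.70) and the chemokine gene Cxcl10 (2.94), and Aspg was lower (-3.48). Mouse 30 held most of the Cxcl10, with 9.34, 3.40, 855 and 12.9 CPM in tanycytes in mice 3, 4, 30 and 34, and with 104 CPM in astrocytes of mouse 30 against at most 2.57 CPM in those of the other mice. Cxcl10 passed the filter on low counts only with the sums of mouse 30, so its place among the 3 of 4 rests on that mouse. The median of the 4 genes tested, Cxcl10 included, was 2.32 beside -0.0094 over all genes. Of genes known to rise in astrocytes in inflammation 5 of 9 tested were higher in tanycytes and 2 were lower. Among the higher was the interferon-induced GTPase gene Gbp2 (1.99). The gap was widest in mouse 30. The 11 listed genes summed to 203, 227, 529 and 257 CPM in tanycytes of mice 3, 4, 30 and 34. In astrocytes of the same mice they summed to 190, 204, 286 and 189 CPM. Of genes known to rise in ischaemia all 4 tested, S100a10 (2.18), Cd109 (1.77), Emp1 (1.97) and Tm4sf1 (2.35), were higher in tanycytes. Ependymal cells held still more Cd109, Emp1 and Tm4sf1 than tanycytes (-2.53, -2.06 and -4.71). Of the other filament genes 2 of 8 tested were higher in tanycytes than in astrocytes, Synm, for the vimentin partner synemin (3.02), and Lmna, for the nuclear lamins A and C (1.49), and Ina was lower (-1.33). Of the other S100 genes 3 of 7 were higher, S100a4 (3.66), S100a10 and S100a11 (3.02). Anxa2, for the S100A6-binding annexin A2, was higher as well (4.07), 1 of 3 partner genes tested. Of the other tetraspanins 1 of 10, Cd82 (1.21), was higher and 2 were lower. Among 8 genes of the IL-6 receptor family and STAT3, Socs3, the feedback inhibitor, was higher in tanycytes (1.69), and the receptors Lifr (-2.45) and Cntfr (-1.38) were lower. In these last 2 lists the share called higher was near that of all genes.

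The other reactivity genes also differed by mouse in the ependymal cells. The 7 pan-reactive genes summed to 74.4, 57.7, 4556 and 131 CPM in mice 3, 4, 30 and 34. Cxcl10 made up most of this, at 3731 CPM in mouse 30 and 0 to 38.5 CPM elsewhere, and Steap4, a metalloreductase, was at 240.4 CPM there and listed at 0 in the other mice. The 11 inflammation genes summed to 154, 219, 1333 and 349 CPM, and mouse 30 was highest for H2-D1, Ggta1 and Gbp2, 3 of the 3 with a mean of at least 20 CPM over the other mice, beside the 22.9% of all genes. The 12 ischaemia genes differed less, at 1048, 1152, 1263 and 1246 CPM. In tanycytes mouse 30 was highest for 4 of 4 such inflammation genes, beside 24.4% of all genes, and the 11 genes summed to 203, 227, 529 and 257 CPM. The genes through which Osmr signals were looked at in ependymal cells. There the co-receptor gene Il6st was at 79.2, 118, 181 and 119 CPM in mice 3, 4, 30 and 34. Stat3 was at 37.2, 34.6, 297 and 119 CPM and Socs3 at 34.0, 40.4, 162 and 50.5 CPM. In ependymal cells these 3 of the 6 genes of this list with at least 20 CPM over the other mice were highest in mouse 30. This stands beside the 22.9% of all genes. Osmr was highest in mouse 30 there too, while Il6ra, Jak1 and Jak2 were highest in mouse 34. In ependymal cells mouse 30 also had more of the microglial markers (97.0 CPM against 40.9 to 59.8 CPM) besides the hemoglobin genes, and its cells had fewer UMIs, with a median of 974.5 a cell against 1006 to 1266. Their part in the levels of mouse 30 was not tested.

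The genes most like each member over 28 sums (7 cell types of 4 mice), by Pearson's r of log2(CPM + 10) among 7137 genes, are given as a description, since sums of 1 mouse share a library and sums of 1 type share a cell kind. Vim went with Anxa2 (0.98), S100a11 (0.98) and Msn (0.94). Nes went with Ahnak (0.97), Iqgap1 (0.95) and Msn (0.95). Gfap went with Grina, Fam213a and Gna13 (each 0.87). S100a6 went with S100a4 (0.93), Ubl5 (0.89) and Pdia4 (0.87). Cd44 went with Mia (0.92), Cfap126 (0.90) and Cdc14a (0.89). Cd9 went with Slc22a23 (0.93), Tuba1a (0.93) and Pfn2 (0.91). Osmr went with the interferon-related Trim30a (0.93), AW112010 (0.92) and Gbp7 (0.90), and Lcn2 with the chemokine genes Cxcl1 (0.85) and Ccl2 (0.84) and with Gbp5 (0.79). Serpina3n had no close partner, its highest being mt-Nd4 (0.75), Gfap (0.73) and mt-Nd5 (0.73). Among the members themselves Vim and Nes were most alike (0.88), followed by Nes and Osmr (0.79) and Vim and Cd44 (0.79), while Gfap and Vim were at 0.14.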

How the data were processed

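Hypothalamic cells were captured in droplets and sequenced from the 3′ end (10x Genomics, v2 chemistry). The submitters' processing notes name Cell Ranger 1.2, Seurat and the builds GRCm38, mm10 and GRCh38, with no role given. The deposited counts are whole UMI counts per gene and cell, not normalized. The authors also gave cell type labels, a mitochondrial percent and a doublet score, deposited as a fraction, for each cell. The depth-corrected counts were not used, nor were 50172 cells of 12 libraries that are not among the labelled samples. All 6 samples are in 1 group, R50E, and 2 had no cells in the table. The members and lists were chosen with earlier results of these data known.

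UMI counts were summed per mouse and type. Sums were compared with edgeR 4.0.16 in R 4.3.3 (TMM, filterByExpr, quasi-likelihood F test, mouse as block because the sums compared came from the same animals, Benjamini-Hochberg over all genes tested). On simulated counts, 4-fold changes were called for 98% to 100% of genes between types, and for 77% and 97% in the tanycyte and astrocyte splits. There 2-fold changes passed the adjusted p for 72% to 83% of genes between types, and for 32% and 64% in the tanycyte and astrocyte splits. SEs were derived from the F statistic. The genes named are the 9 members, called genes of the lists and, in each Gfap split, up to 8 called genes a direction with the largest change, the same sign in 4 of 4 mice and at least 50 CPM, of which 2 are not reported here. For each member, the 3 genes most alike are named. Shares used each cell thinned to 500 UMIs, which left out 1 cell. Doublets were not removed here, and leaving out the tenth of cells with the highest doublet score was an alternative. Other alternatives were RLE normalization, DESeq2 1.42.0, no filter, no block, equal totals, 800 UMIs and leaving out each mouse. Depth was 3299971 to 8856079 UMIs a mouse. The p-values and SEs come from a fit to 4 animals in which estimates of variance are shared over genes. Neither is therefore a gene's own spread between the mice. Gene positions are those of GENCODE (GRCm38), and promoter windows those of RefSeq.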

Additional observations from a re-analysis of the deposited data

Results flagged for a closer look

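Of 49 levels with at least 10 UMIs in the highest mouse, 8 had 1 mouse apart from the other 3 by Dixon's limit, and in all 8 it was mouse 30, above the others. Chance sets about 1 in 20 groups of 4 apart, but these levels were admitted by their highest mouse, so that rate cannot be set against the 8. Serpina3n in ependymal cells reached 181 CPM there, the other mice lying between 2.89 and 12.9 CPM. Serpina3n in tanycytes was at 52.7 CPM, against 3.93 to 9.07 CPM. Osmr in ependymal cells was at 67.5 CPM, with at most 5.77 CPM elsewhere, and in tanycytes at 27.4 CPM, against 2.27 to 5.04 CPM. Lcn2 was at 156 CPM in ependymal cells, 281 CPM in endothelial cells and 20.6 CPM in oligodendrocytes of mouse 30 and was listed at 0 in the other mice. In oligodendrocytes 9 of the 10 Lcn2 UMIs lay in 1 cell. Vim in microglia was at 233 CPM in mouse 30, from 95 cells, against 15.0 to 44.7 CPM.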

How the results depend on the processing

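No called fold change changed sign. Of those not called 5 did, under 8 alternatives in all, among them Gfap in precursor cells against oligodendrocytes (from 0.30 to -0.24) and Cd9 between tanycytes and ependymal cells (from -0.03 to 0.09); the others were Cd9 in the astrocyte split and Cd44 and S100a6 in the tanycyte split. Between tanycytes and ependymal cells 1 member was called, 3 without a filter on low counts, and 1 to 2 when 1 mouse was left out (2 without mouse 4), the added ones being among the members that the filter had removed. Between astrocytes with and without a Gfap UMI 2 were called, 1 without a filter (Serpina3n 0.93), 0 with equal totals and 1 to 2 when 1 mouse was left out (1 without mouse 3). DESeq2 gave no adjusted p for Vim and Serpina3n there. Leaving out 1 mouse gave 6 to 7 calls between tanycytes and astrocytes, 6 between astrocytes and ependymal cells, 6 to 7 between endothelial cells and astrocytes and 0 in the remaining comparisons. Without mouse as a block, which pairs the sums of each animal, Serpina3n between astrocytes and ependymal cells was at 0.68 (edgeR, adjusted p 0.340), and DESeq2 gave 2.20 (adjusted p 0.0542). The 2 calls of the astrocyte split held without the block (Vim 1.84, adjusted p 0.0268; Serpina3n 1.06, adjusted p 0.0218), and no other call of a member changed. Cd9 fell within 2-fold with equal totals in astrocytes against ependymal cells (-0.91) and endothelial cells against astrocytes (-0.97), and without mouse 30 (1.00 for tanycytes against astrocytes, -0.96 for astrocytes against ependymal cells). S100a6 in the astrocyte split was at 1.09, and called, without the tenth of cells of highest doublet score. S100a6 was also called in endothelial cells against astrocytes without mouse 34 (-1.15). Over all alternatives, those named here and beside the results included, fold changes stayed on their side of the thresholds in 387 cases, lost their call in 12 (Cd9 and Serpina3n) and gained one in 2 (S100a6), and 420 levels moved by less than 1 SD and 12 by more. Fold changes of a gene that an alternative filtered out or gave no adjusted p were not among the lost calls. Vim in the astrocyte split, filtered out with equal totals, is such a case. Of the ratios of pairs, 3 left their interval, all in ependymal cells without mouse 30 or 34. Shares of cells moved by more than 1 SD in 49 cases and by less in 167, all of them with no thinning or at 800 UMIs. Counting depth limits Lcn2, Osmr, and Nes and Cd44 in astrocytes, and 4 mice of 1 treatment allow no statement on R50E.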
